A study of Mus musculus with 16 samples.

Results

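The clustered replication-dependent histone genes were followed in 16 RNA-seq libraries of C2C12 cells, a mouse myoblast line that stops dividing and fuses into myotubes when serum is lowered. The members were all rows whose GENCODE symbol begins with Hist1h, Hist2h, Hist3h or Hist4h, with no use of measured values. Of the 49585 genes in each count table, 68 were members: 6 of class H1, the linker histones that sit on the DNA entering and leaving the nucleosome, 20 of class H2A, 17 of H2B, 12 of H3 and 13 of H4, the core histones around which the DNA is wound. Chromosome 13 held 54 of them, chromosome 3 held 10, chromosome 11 held 3 and chromosome 6 held 1. A further 2 symbols of this form, *Hist1h2bm* and *Hist1h2bh*, were not analysed here.

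Wild-type cells (WT) and cells in which both catalytic subunits of the energy-sensing kinase AMPK had been knocked out by CRISPR-Cas9 (AMPK-KO) were sampled as myoblasts at d0 and after 8 days in differentiation medium (d8), with 2 libraries in each of the 4 groups. In a second table, all cells were AMPK-null myoblasts at d0 and carried a FLAG-BirA tag knocked in at TET2, a DNA demethylating enzyme, with either the normal serine (TET2-WT) or a glutamate that mimics its phosphorylation (TET2-S97E), each as 2 clones with 2 replicates. With 2 clones per allele, a clonal difference and an effect of the allele can be told apart only as far as these 4 clones allow. The labels do not say from which AMPK-KO line each library came, nor that replicates were separate cultures, so the p-values measure the spread between these libraries, which may be technical. Total counts per library were 17883417 to 24663079 for WT and AMPK-KO and 19801909 to 37790358 for the TET2 lines. Levels are given as CPM, a gene's count relative to the TMM-scaled total of its library, computed for each table separately.

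Most cells make replication-dependent histones in bulk only during S phase, when new DNA must be packaged. Their messages have no introns and end not in a poly(A) tail but in a short stem-loop, bound by the stem-loop binding protein (Slbp) and cut with the help of the U7 small nuclear RNP, and they are degraded when replication stops. A few genes of the clusters can also yield polyadenylated, sometimes spliced, transcripts that continue past the stem-loop, and such forms are known from cells that have left the cell cycle.

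The stem-loop was found in the annotated transcripts of 41 members, 37 of them with an exact match to the consensus and 4 with a single mismatch, in 6 spellings. The form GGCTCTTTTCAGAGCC occurred in 24 members, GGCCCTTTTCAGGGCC in 7, all of them H4 genes, and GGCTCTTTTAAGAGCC in 6. The stem-loops of the genes on which the results turn, and of 2 members with fewer counts at d8, were read from the GENCODE M21 transcripts (GRCm38) and are shown 5′ to 3′, with the 16 bases of the stem-loop in capitals and 5 flanking bases on each side.
Hist1h1c: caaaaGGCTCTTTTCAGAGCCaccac
Hist1h1e: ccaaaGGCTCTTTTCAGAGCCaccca
Hist1h2be: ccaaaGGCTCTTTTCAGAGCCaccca
Hist1h3d: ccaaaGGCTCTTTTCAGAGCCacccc
Hist2h3c2: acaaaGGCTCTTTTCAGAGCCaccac
Hist1h4h: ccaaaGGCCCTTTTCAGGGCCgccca
Hist1h4i: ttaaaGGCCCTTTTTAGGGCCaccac
Hist2h4: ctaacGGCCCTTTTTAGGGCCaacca
Hist1h3c: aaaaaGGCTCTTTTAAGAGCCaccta
Hist1h2bk: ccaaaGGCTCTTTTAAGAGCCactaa

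*Hist1h1c*, *Hist1h1e*, *Hist1h2be*, *Hist1h3d* and *Hist2h3c2* had the same 16 bases. Members also differed in where the annotated transcript ends. In 20 members it ended within 100 bases of the stem-loop, with a median length of 483.5 bases, in 21 it ran on for more than 100 bases, with a median length of 1249, in 24 no stem-loop was found, and 3 were pseudogenes. The transcript of *Hist1h1c* (chr13:23738808-23740367, + strand, 1 exon) ran on for 840 bases, whereas that of *Hist1h2bc* (chr13:23684199-23692908, + strand, 2 exons) was spliced and held no stem-loop. Counts fell on whatever part of a transcript was annotated, so a read past the end of a short model was not counted for that gene. The ends given here are those of GENCODE M21, while the reads were counted on M12. For 22 members, *Hist1h2bc*, *Hist1h1e*, *Hist1h2be*, *Hist1h3d* and *Hist1h4h* among them, the identifier version differed, so the counted model may have ended elsewhere.

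Promoters of 59 members were present in the RefSeq table (GRCm38.p6), each as 250 bases before and 50 bases after the start. The stretch of 250 bases before the start of *Hist1h1c* (chr13:23738557-23738806, + strand) is shown because this gene carried most of the histone reads, with the H1 box (AAACACA) and the CCAAT box (CCAAT) in capitals.
Hist1h1c promoter: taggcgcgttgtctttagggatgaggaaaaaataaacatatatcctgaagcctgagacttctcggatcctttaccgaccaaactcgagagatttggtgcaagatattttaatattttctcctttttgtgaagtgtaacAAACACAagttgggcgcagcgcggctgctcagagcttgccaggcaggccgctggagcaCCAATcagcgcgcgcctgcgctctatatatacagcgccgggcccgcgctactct

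Searched on both strands, CCAAT was in 84.7% of the member promoters and in 37.4% of all 32851 promoters of the same length. It was in every promoter of classes H1, H2A, H2B and H3 that had one in the table, but in only 3 of 12 H4 promoters. The H1 box was in 5 of 6 H1 promoters and in 7.18% of all promoters. The octamer ATTTGCAT was found in 7 of 17 H2A and 5 of 14 H2B promoters and in none of the other classes, against 1.74% of all promoters, and TATAAA was in 59.3% of members against 13.6% of all. A match of these letters is a description of the sequence, not a measured binding site.

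Histone reads were a small part of every library and came largely from a pair of genes. The members took 0.00559 to 0.0392% of the counts in the WT and AMPK-KO table. *Hist1h1c*, which encodes the linker histone H1.2, and *Hist1h2bc*, which encodes a core H2B, made up 64.5 to 89.8% of the histone counts in each of the 8 libraries, and 76.9 to 80.6% in each of the 8 TET2 libraries. At the other end, 7 members were at 0 in all 16 libraries, 14 never exceeded 3 counts, the level treated here as not detected, and 29 stayed under 10 counts in every library. The testis-type members never exceeded 3 counts.

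On the TPM scale, which corrects for transcript length and depth, the mean level over the 8 WT and AMPK-KO libraries was 326 for *Hist1h1c* and 108 for *Hist1h2bc*. The next H1 gene was *Hist1h1e* (linker histone H1.4) at 2.06, and the next H2B gene was *Hist1h2bg* at 7.94. Among H4 genes *Hist1h4i* was highest at 21.7 and among H3 genes *Hist2h3c2* at 12.6, while the highest H2A rows were the pseudogene *Hist1h2al* at 19.7, *Hist1h2af* at 7.78 and *Hist3h2a* at 5.16. The third members of these classes, *Hist1h1a*, *Hist1h2bj*, *Hist1h3d* and *Hist1h4n*, had mean levels of 1.56, 3.37, 2.17 and 3.0, and *Hist1h3c* and *Hist1h4h* of 2.86 and 5.39. The median member had a level of 0.455 and 1.20 TPM in the WT d0 libraries and 0.602 and 1.11 in the AMPK-KO d0 libraries. At d8 it was 0.736 and 0.453 TPM in WT and 0.636 and 0.365 in AMPK-KO, so that over all 68 members the d8 values overlapped those at d0 in both genotypes. For comparison, the median level of 30 DNA replication and S phase genes in the 4 d0 libraries was 41.3, 58.8, 71.1 and 64.9 TPM. These levels may depend on how a gene was annotated and counted as well as on its RNA, which was not tested. Of the 68 members, 44 had fewer than 80% of their 100-base windows unique among the members, and all 20 H2A members overlapped a gene on the other strand.

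**Figure D1:**
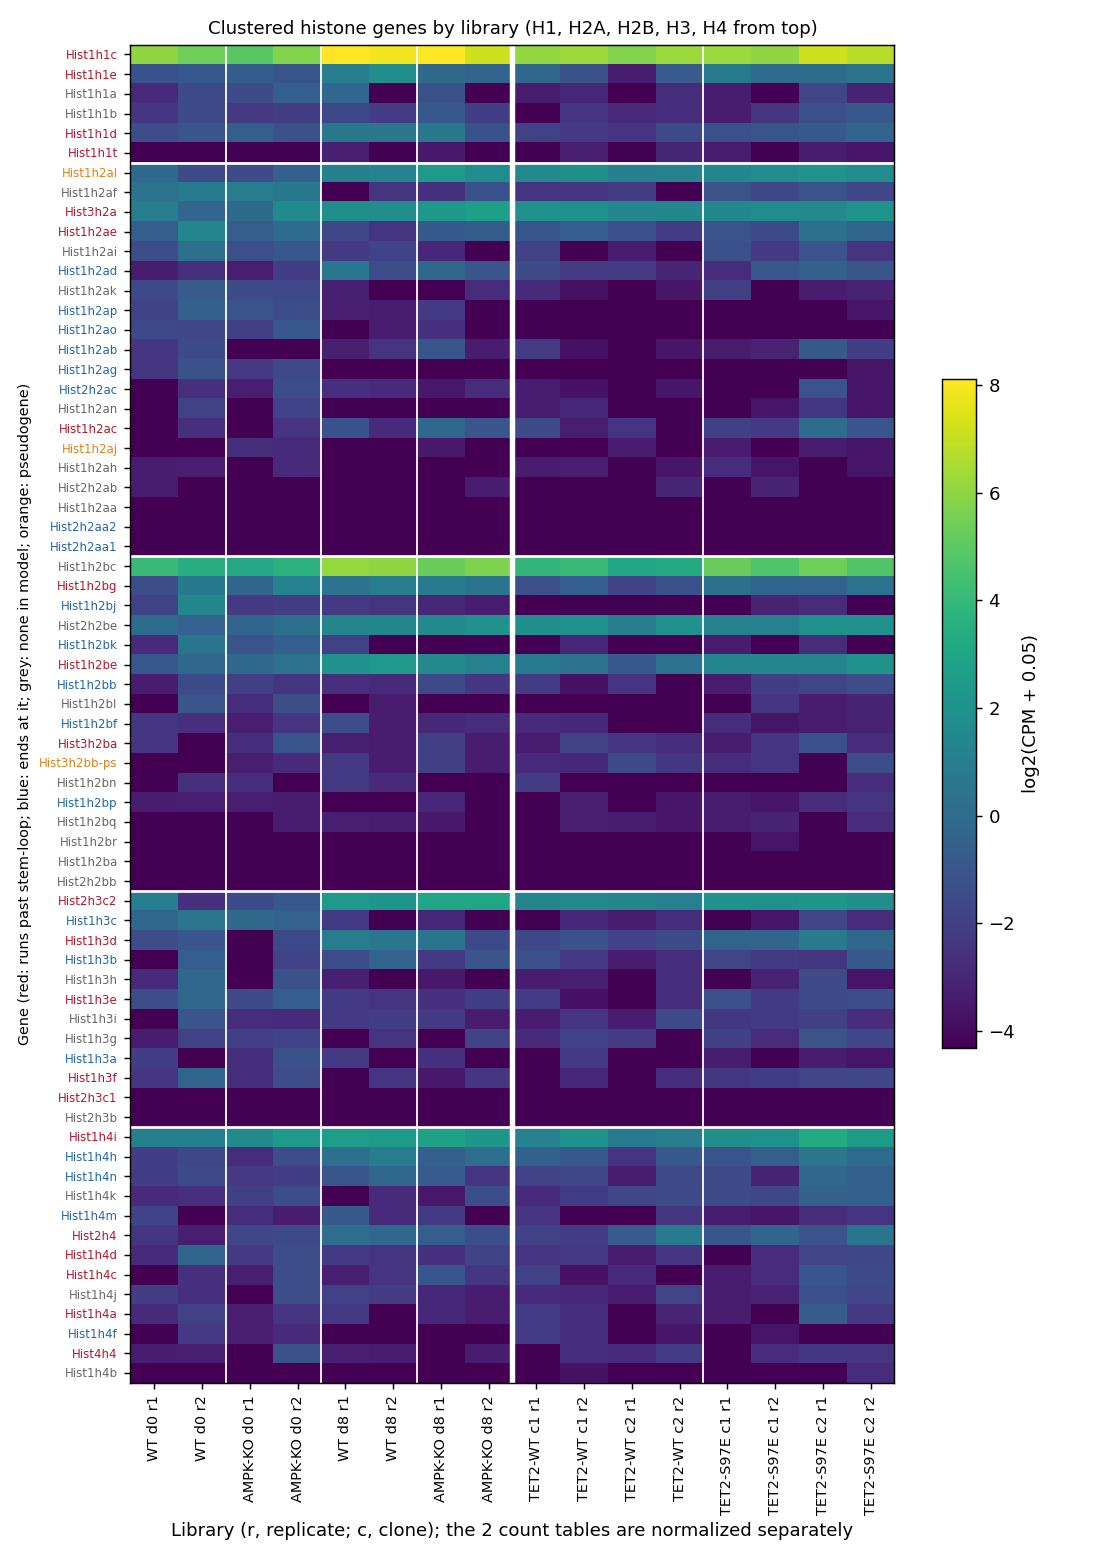
Normalized level of each of the 68 members (rows, grouped by class from H1 at the top to H4 at the bottom) in each of the 16 libraries (columns), as log2 of CPM + 0.05. *Hist1h1c* and *Hist1h2bc* stand out as bright rows in every library, most rows are dark throughout, and the name colours give the end of the annotated transcript.

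The study's kit was for total RNA, and no step that selects poly(A) RNA is named in the sources used here. To see how such RNA was represented, 13 noncoding RNAs made without a tail were read beside the histones. In the WT and AMPK-KO libraries, 8 to 10 of these 13 were at 0 and their summed counts were 12 to 57, while in the TET2 libraries 5 to 9 were at 0 and the sums were 85 to 600. *Rn7sk*, the RNA that holds the elongation factor P-TEFb inactive, was the most abundant of them in every TET2 library, with 70 to 526 counts, and had 6 to 45 counts in the first table. *Rmrp*, the RNA of RNase MRP, had 1 count in 1 library and was at 0 in the others. The part that poly(A) selection, other steps of library preparation, fragment size or read mapping had in these low counts was not tested. RNA of a gene with a tail and without one cannot be told apart in these counts.

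The first comparison asked how the histone genes differed between d0 and 8 days in differentiation medium. In WT cells the summed level of all members was 98.5 and 80.6 CPM at d0 and 386 and 344 CPM at d8, a mean of 89.6 ± 12.7 against 365 ± 29.8 (SD, n = 2), or 4.08-fold higher. In AMPK-KO cells the sum was 56.5 and 95.0 CPM at d0 and 355 and 238 CPM at d8, a mean of 75.7 ± 27.2 against 297 ± 82.7 (SD, n = 2), or 3.92-fold higher. Both d8 libraries lay above both d0 libraries in each genotype. In bulk RNA, a change in the number of cells that express a gene and a change in RNA per cell cannot be told apart.

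**Figure D2:**
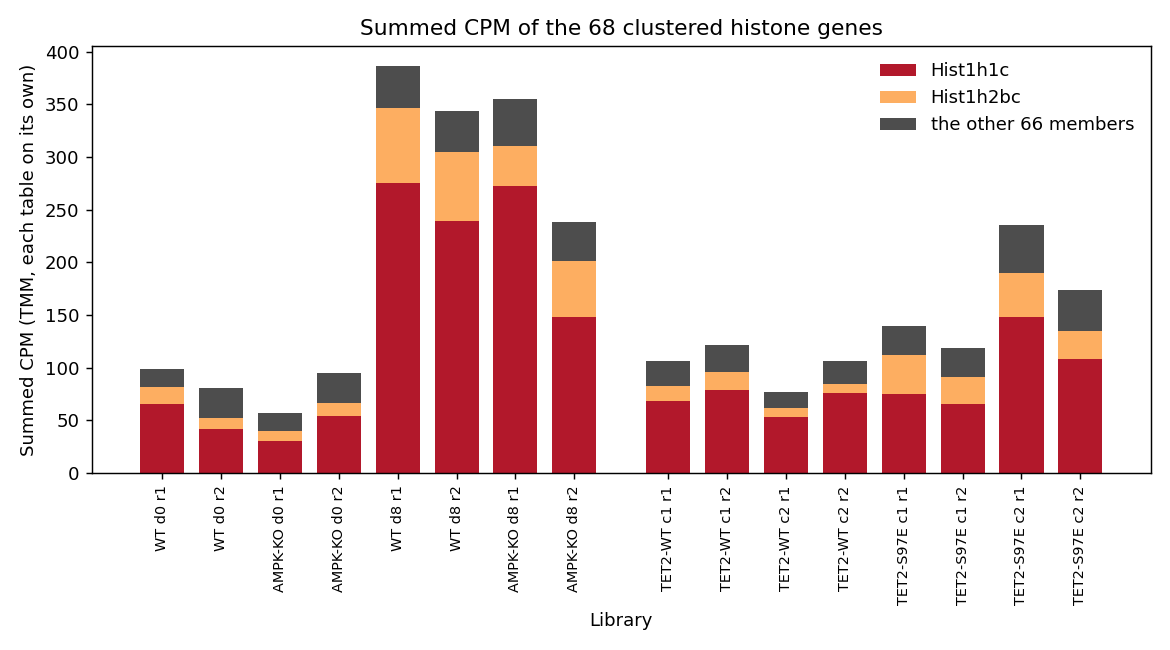
Summed CPM of the 68 histone genes in each of the 16 libraries, stacked as *Hist1h1c*, *Hist1h2bc* and all other members. The 4 libraries at d8 reach 238 to 386 CPM and the 4 WT and AMPK-KO libraries at d0 only 56.5 to 98.5, and most of each bar is *Hist1h1c*.

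Most of that sum was *Hist1h1c* and *Hist1h2bc*. In WT cells *Hist1h1c* was 65.2 and 41.3 CPM at d0 and 276 and 239 at d8. In AMPK-KO cells it was 30.3 and 54.1 at d0 and 272 and 148 at d8. The groups did not overlap, and edgeR's quasi-likelihood test gave a log2 fold change of 2.27 ± 0.404 (SE, adjusted p = 0.0182) in WT and of 2.32 ± 0.405 (adjusted p = 0.0235) in AMPK-KO.

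The H2B gene *Hist1h2bc* followed the same course. It was 16.4 and 10.6 CPM at d0 and 70.9 and 66.3 at d8 in WT cells, and 9.16 and 12.2 at d0 and 38.0 and 52.9 at d8 in AMPK-KO cells. Its log2 fold change was 2.34 ± 0.287 (SE, edgeR adjusted p = 0.0143) in WT and 2.09 ± 0.285 (adjusted p = 0.0210) in AMPK-KO. Without this pair, all other members together were 17.0 and 28.6 CPM at d0 and 39.6 and 38.9 at d8 in WT cells, and 17.0 and 28.8 at d0 and 45.2 and 37.2 at d8 in AMPK-KO cells.

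Only 23 members passed the filter on low counts in this table, and 45 did not; the largest count of an untested member was 47, in *Hist1h2bj*, and the median of their largest counts was 7. A low gene could enter the fit through the group in which it is high, so the counts of members that moved describe the 23 and not the 68. Genes are said to be called, or not, by edgeR with this filter unless another tool or setting is named. In WT cells 7 of 23 (30.4%) rose at d8, against 5.78% of all 14329 genes tested, and 1 (4.35%) fell, against 6.58% of all genes. In AMPK-KO cells 5 (21.7%) rose, against 4.81% of all genes, and 0 fell in edgeR, against 4.95% (3 were lower at an unadjusted p under 0.05, and DESeq2 called 2). The median log2 fold change of the 23 was 1.59 in WT and 1.06 in AMPK-KO, beside 0.01 and 0.02 over all genes tested.

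The calls in WT cells depended on which libraries were in the fit. Leaving out WT d0 replicate 2, WT d8 replicate 1 or WT d8 replicate 2 took the calls among all genes to 0, 2 and 0, and the histone calls to 0. Leaving out WT d0 replicate 1 gave 4 histone genes higher and 3 lower, beside 978 and 1282 among all genes. Leaving out either AMPK-KO d0 library gave no call among all genes in the AMPK-KO comparison. Whichever AMPK-KO library was left out, d0 or d8, 0 to 2 histone genes were called higher there. The direction of every called gene was kept in these fits, which could hardly be otherwise where the d0 and d8 libraries did not overlap.

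In WT cells the genes that rose beside *Hist1h1c* and *Hist1h2bc* were of classes H1, H2B and H4. *Hist1h1e* (chr13:23620629-23622558, - strand) was 0.386 and 0.488 CPM at d0 and 1.82 and 3.38 at d8, with a log2 fold change of 2.56 ± 0.520 (SE, adjusted p = 0.0263). *Hist1h2be*, an H2B gene with a spliced model (chr13:23583670-23621124, - strand), was 0.482 and 0.813 CPM at d0 and 4.02 and 5.16 at d8, a change of 2.82 ± 0.455 (adjusted p = 0.0156). The annotated exons of these genes overlap on the same strand, so their reads cannot be fully told apart.

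The 3 H4 genes called in WT encode the same core histone, H4. *Hist2h4* (chr3:96261682-96263311, - strand) was 0.145 and 0.0542 CPM at d0 and 1.05 and 0.845 at d8, or 4 counts against 37, a ratio per total counts of 9.25 (95% exact interval 3.32 to 35.7, counting error only; edgeR adjusted p = 0.0322). *Hist1h4h* (chr13:23531050-23531519, + strand) was 0.193 and 0.271 CPM at d0 and 1.16 and 1.88 at d8, with a log2 fold change of 2.69 ± 0.674 (adjusted p = 0.0448). *Hist1h4i* (chr13:22040636-22041362, - strand) was 1.98 and 2.01 CPM at d0 and 6.12 and 5.21 at d8, a change of 1.5 ± 0.390 (adjusted p = 0.0492), the smallest of the 7 increases. With the replicate number as a block, *Hist1h4i* was not called (adjusted p = 0.0515).

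In AMPK-KO cells the other genes called were an H2B gene, an H3 gene and a pseudogene. *Hist2h2be* (chr3:96221119-96223738, + strand, H2B), whose sequence is unique among the members, was 0.785 and 1.17 CPM at d0 and 3.02 and 3.84 at d8, a log2 fold change of 1.80 ± 0.414 (adjusted p = 0.0416). *Hist2h3c2* (chr3:96238108-96239127, - strand, H3) was 0.314 and 0.468 CPM at d0 and 7.91 and 7.97 at d8, a change of 4.32 ± 1.01 (adjusted p = 0.0426). Its windows were 38.4% unique, since it shares sequence with *Hist2h3c1* and *Hist2h3b*, both listed at 0 in every library.

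The pseudogene *Hist1h2al* (chr13:51202727-51203065, - strand) was 0.314 and 0.654 CPM at d0 and 5.18 and 3.21 at d8 in AMPK-KO cells, an increase of 3.09 ± 0.624 on the log2 scale (adjusted p = 0.0314). In WT cells the same genes had higher values at d8 without passing the threshold in edgeR with the filter: *Hist2h2be* was 1.01 and 0.705 CPM at d0 and 2.48 and 2.72 at d8 (log2 fold change 1.59, adjusted p = 0.0514, or 0.0497 with the replicate number as a block, which made the call), *Hist2h3c2* was 1.98 and 0.108 at d0 and 5.07 and 4.60 at d8 (2.19, adjusted p = 0.151), and *Hist1h2al* was 0.916 and 0.325 at d0 and 2.04 and 2.21 at d8 (1.75). DESeq2 called *Hist2h2be* (adjusted p = 0.0390) and *Hist2h3c2* (adjusted p = 0.0449) higher in WT, and edgeR without the filter called these and *Hist1h2al* (adjusted p = 0.0463, 0.000267 and 0.0295). The WT d0 libraries differed widely in *Hist2h3c2*.

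A few members went the other way. *Hist1h2af*, an H2A gene (chr13:23533906-23534304, + strand), fell in WT cells: it had 27 and 31 counts at d0 and 0 and 3 at d8, a ratio per total counts of 19.3 (95% exact interval 6.3 to 96.5, counting error only; edgeR adjusted p = 0.0343). In AMPK-KO cells it had 36 and 34 counts at d0 and 3 and 8 at d8 and was not called by edgeR with the filter (log2 fold change -2.76, adjusted p = 0.0764), but was by DESeq2 (adjusted p = 0.0303) and by edgeR without the filter (adjusted p = 0.00345). Its windows were 34.7% unique, so these reads could belong to other H2A genes.

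The H3 gene *Hist1h3c* (chr13:23744973-23745602, - strand), whose model ends at the stem-loop, had 0.820 and 1.41 CPM at d0 and 0.165 and 0 at d8 in WT cells (adjusted p = 0.0702), and 0.942 and 0.701 at d0 and 0.0816 and 0 at d8 in AMPK-KO cells (adjusted p = 0.0754). As counts these were 43 against 3 in WT and 33 against 2 in AMPK-KO. Relative to the total counts of the libraries, the ratio was 14.3 (95% exact interval 4.59 to 72.3) in WT and 18.7 (4.78 to 161) in AMPK-KO. Both intervals cover counting error only, and every d8 library was at or under the 3 counts treated as not detected. The groups did not overlap in either genotype, and neither change passed the threshold in edgeR with the filter. DESeq2 called *Hist1h3c* lower in WT (adjusted p = 0.0488) and in AMPK-KO (adjusted p = 0.0443), as did edgeR without the filter (adjusted p = 0.00283 and 0.00205). Across the 23 tested members, both d8 libraries were above both d0 libraries for 15 in WT and 12 in AMPK-KO, and below them for 4 and 5. The same counts were not made over all genes tested, so these do not show whether the members stand apart from other genes.

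**Figure D3:**
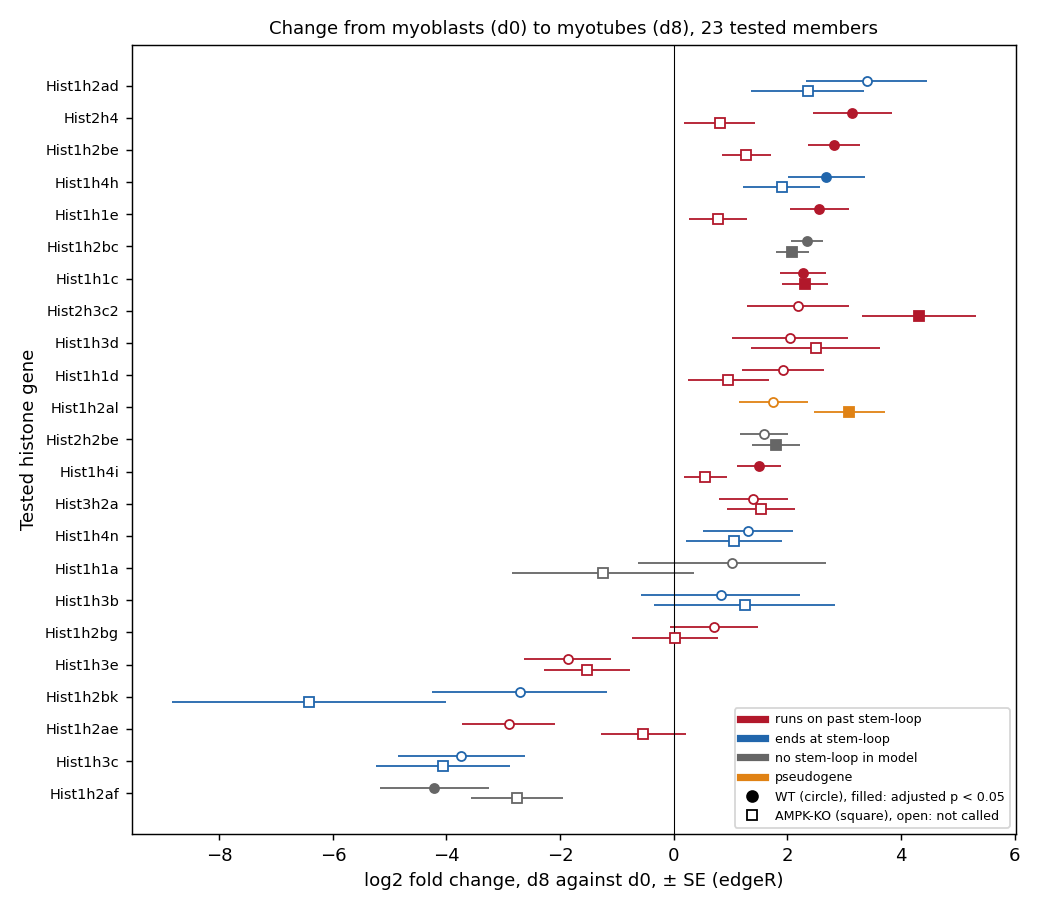
log2 fold change from d0 to d8 with its SE for the 23 tested members, in WT (circles) and AMPK-KO (squares), filled where the edgeR adjusted p was under 0.05 and coloured by the end of the annotated transcript. Increases of *Hist1h1c* and *Hist1h2bc* are filled in both genotypes, and *Hist1h2af* is the only filled decrease.

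The members were also sorted by the end of the transcript annotated in GENCODE M21, which may differ from the model counted. In WT cells, 12 tested members ran on past the stem-loop, of which 10 had a positive change and 5 were called higher, 6 ended at it, of which 4 had a positive change and 1 was called higher, and 4 had none in the model with 1 called higher and 1 lower. Of all genes tested in WT, 5.78% were called higher and 6.58% lower. The median log2 fold change was 1.98 for the 12 and 1.07 for the 6. In AMPK-KO cells the order was the other way, with a median of 0.89 for the 12 and 1.15 for the 6, and of the 5 genes called higher 2 ran on past the stem-loop, 2 had none in the model and 1 was the pseudogene. The share of all genes called higher there was 4.81%. The summed level of the members that run on, *Hist1h1c* left out, was 9.26 and 12.1 CPM at d0 and 27.6 and 28.1 at d8 in WT, and 8.74 and 16.9 at d0 and 31.5 and 26.2 at d8 in AMPK-KO. The members whose models end at the stem-loop or hold only the coding sequence summed to 5.26 and 14.5 CPM at d0 and 5.84 and 5.26 at d8 in WT, and to 6.33 and 8.46 at d0 and 4.37 and 3.35 at d8 in AMPK-KO. These sums, over all members of each kind, were higher in every d8 library than in every d0 library of the same genotype for the long models and not for the short ones. The limit of 100 bases was chosen after values had been seen, and no test was made of the difference between these sets.

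The sum of the short models at d0 in WT was higher in replicate 2 than in replicate 1. Replicate 2 held 47 counts of *Hist1h2bj* against 5 in replicate 1 and 25 of *Hist1h2bk* against 2, both H2B genes whose models end at the stem-loop. It also held 47 counts of *Hist1h2ae* against 13, an H2A gene whose model runs on for 151 bases. At d8 in WT, *Hist1h2bj* was 0.165 and 0.141 CPM, *Hist1h2bk* 0.220 and 0, and *Hist1h2ae* 0.275 and 0.141. The change of *Hist1h2ae* was not called by edgeR with the filter (log2 fold change -2.91, adjusted p = 0.0620), but was by DESeq2 (adjusted p = 0.0372) and by edgeR without the filter (adjusted p = 0.00384). Without the filter, edgeR also called *Hist1h2bj* lower at d8 in WT (log2 fold change -3.13, adjusted p = 0.0112) and *Hist1h2bk* lower at d8 in AMPK-KO, where it had 8 and 13 counts at d0 and 0 at d8 (adjusted p = 0.00205). In the same fit *Hist1h2bj* was called lower in AMPK-KO than in WT at d0 (log2 fold change -2.96, edgeR adjusted p = 0.0242), where its 0.157 and 0.187 CPM stood against 0.241 and 2.55 in WT.

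The second comparison asked whether loss of AMPK changed the histone genes. None of the 23 tested members was called at either time point by edgeR or by DESeq2. At d0, 0 were lower and 0 higher, against 2.83% and 0.698% of all genes tested, and 1 had an unadjusted p under 0.05 (*Hist1h4i*, 1.98 and 2.01 CPM in WT and 2.98 and 5.05 in AMPK-KO, log2 fold change 1.01, adjusted p = 0.203). At d8, 0 were lower and 0 higher, against 3.98% and 1.36%, and 1 had an unadjusted p under 0.05 (*Hist1h1e*, 1.82 and 3.38 CPM in WT and 0.938 and 0.777 in AMPK-KO, log2 fold change -1.59, adjusted p = 0.111).

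The summed level in AMPK-KO was 0.846 of that in WT at d0 and 0.813 at d8, and the libraries of the genotypes overlapped at d0 and at d8. With single libraries left out, the log2 ratio of the sums ranged from -0.69 to 0.08 at d0, where its sign changed. At d8 it ranged from -0.60 to -0.07. *Hist1h1c* had log2 fold changes of -0.34 at d0 and -0.29 at d8, and both changed sign when single libraries were left out. *Hist1h2bc* was 70.9 and 66.3 CPM in WT and 38.0 and 52.9 in AMPK-KO at d8 (log2 fold change -0.60, adjusted p = 0.248), values that did not overlap.

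The change from d0 to d8 was also compared between genotypes directly. The interaction term in edgeR called 0 of 23 members, and 0 of all 14329 genes (0%). At an unadjusted p under 0.05 there were 3 members, *Hist1h1e*, *Hist1h2be* and *Hist2h4*, each with a smaller increase in AMPK-KO (adjusted p = 0.969). DESeq2 called 0 of 25 members, and 29 genes lower and 25 higher of all 14385 tested. In AMPK-KO cells *Hist1h1e* was 0.576 and 0.421 CPM at d0 and 0.938 and 0.777 at d8, *Hist1h2be* 0.837 and 1.22 at d0 and 2.81 and 2.19 at d8, and *Hist2h4* 0.262 and 0.281 at d0 and 0.612 and 0.340 at d8. The signs of the d8 changes were the same in both genotypes for 22 of 23 members, the exception being *Hist1h1a*, and *Hist1h1c* and *Hist1h2bc* were the ones called in both by edgeR with the filter. DESeq2 called *Hist2h2be*, *Hist2h3c2*, *Hist1h2af* and *Hist1h3c* in both as well.

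**Figure D4:**
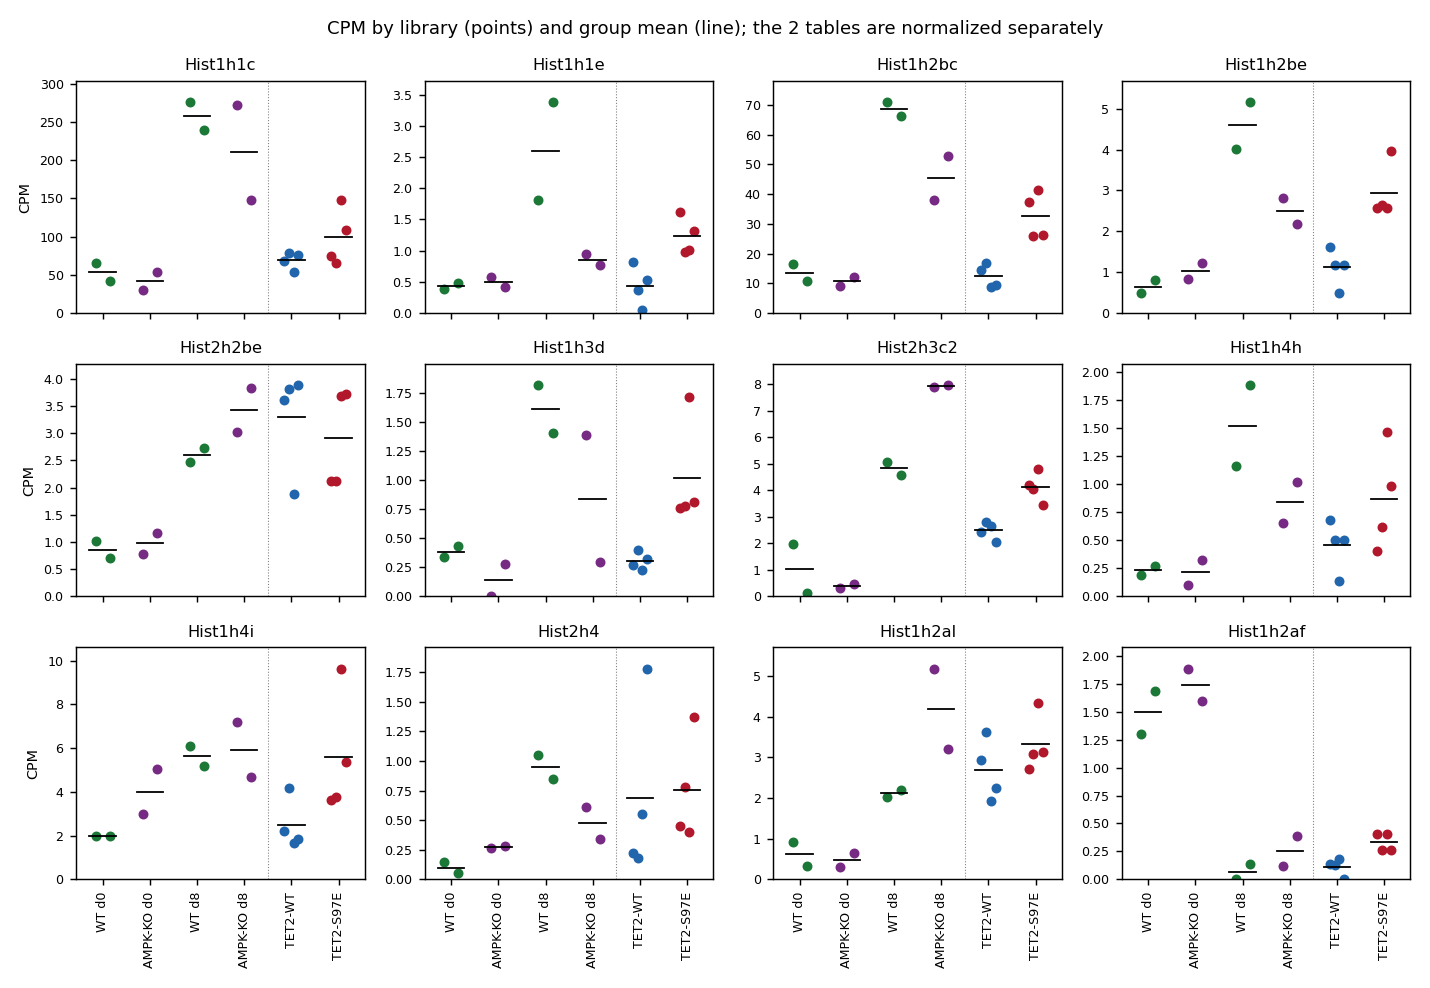
CPM in every library (points) with the group mean (line) for 12 members, the H1, H2B, H3 and H4 genes called in any comparison together with *Hist1h2al* and *Hist1h2af*. The 2 tables, separated by the dotted line, are normalized on their own, and each panel has its own axis from 0.

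The third comparison asked whether TET2-S97E changed histone RNA in AMPK-null myoblasts. The summed level was 106, 122, 77.2 and 106 CPM in the TET2-WT libraries (clone 1 replicates, then clone 2) and 139, 118, 235 and 173 in the TET2-S97E libraries. The means were 103 ± 18.5 and 167 ± 51.2 (SD over 4 libraries from 2 clones, which mixes replicate and clone spread), a ratio of 1.62. Of the TET2-S97E libraries, 1 lay within the TET2-WT range, and the highest values were those of TET2-S97E clone 2.

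Of 14 members tested, 2 (14.3%) were higher in TET2-S97E, against 3.71% of all 13433 genes, and 0 were lower in edgeR, against 3.28%, with 0 at an unadjusted p under 0.05 and 0 in DESeq2. As in the first table, a low gene could enter this fit through the group in which it is high, so these counts describe the 14 only. Without the filter edgeR called 1 of 60 higher (2.44% of all genes), while DESeq2 called 5 of 40 (6.09%). With single libraries left out, edgeR called 0 to 1 higher. *Hist1h2bc* was 14.4, 17.0, 8.70 and 9.48 CPM in TET2-WT and 37.3, 25.8, 41.5 and 26.3 in TET2-S97E. Every TET2-S97E library was above every TET2-WT library, and the log2 fold change was 1.40 ± 0.257 (SE, adjusted p = 0.0164). The H3 gene *Hist1h3d* (chr13:23575763-23577011, + strand) was 0.271, 0.396, 0.229 and 0.321 CPM in TET2-WT and 0.757, 0.781, 1.72 and 0.817 in TET2-S97E, again without overlap, a change of 1.70 ± 0.413 (adjusted p = 0.0396, or 0.0556 with the replicate number as a block, which ended the call). With counts summed per clone, which makes the clone the replicate, no gene of the table was called and neither were these.

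Other members had higher values in TET2-S97E without passing the threshold in edgeR with the filter. *Hist1h2be* was 1.63, 1.19, 0.504 and 1.18 CPM in TET2-WT and 2.57, 2.64, 2.58 and 3.95 in TET2-S97E (log2 fold change 1.38, adjusted p = 0.0558). *Hist2h3c2* was 2.44, 2.79, 2.66 and 2.07 CPM in TET2-WT and 4.19, 4.07, 4.80 and 3.46 in TET2-S97E, also without overlap. DESeq2 called both higher (adjusted p = 0.00334 and 0.0337), and *Hist1h4i* too (adjusted p = 0.0423). The most abundant member, *Hist1h1c*, was 68.4, 79.1, 53.3 and 75.4 CPM in TET2-WT and 74.7, 65.2, 148 and 108 in TET2-S97E, values that overlapped (0.52 ± 0.253, adjusted p = 0.253). In all, 13 of the 14 had a positive change, with a median log2 fold change of 0.82 beside 0.01 over all genes, and 7 had an unadjusted p under 0.05. Low genes could join the 14 through the group in which they are high, so this tally does not describe the untested members. Medians between clones of the same allele are given below for comparison.

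The clones themselves differed in *Hist1h1c*. Within TET2-S97E, clone 2 was above clone 1 by 0.88 ± 0.220 on the log2 scale (edgeR adjusted p = 0.0492), the only one of 19 members tested that was called (5.26%), against 3.35% of all 14459 genes called higher and 2.82% lower. With single libraries left out, 0 to 1 member was called higher, and with DESeq2's size factors none was. DESeq2's Wald test called *Hist1h1c* too (adjusted p = 0.00634). Within TET2-WT, 0 of the 19 were called lower or higher by edgeR, against 0.394% and 0.463% of all genes, DESeq2 called 0 of the 14 it tested, and 2 had an unadjusted p under 0.05: *Hist1h2bc*, lower in clone 2 by 0.80, and *Hist2h4*, higher by 2.5. For clone 2 against clone 1, 18 of the 19 were positive in TET2-S97E, with a median log2 fold change of 0.73. In TET2-WT 16 were negative and 3 positive, with a median of -0.65.

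Genes that make, process and handle histone messages were read in the same way. These lists were chosen with earlier results of these data known. Of 20 histone transcription and processing genes, 5 fell in WT and 3 in AMPK-KO, against 6.58% and 4.95% of all genes tested, and 0 rose in either, against 5.78% and 4.81%. *Slbp*, whose protein binds the stem-loop, fell by 1.90 on the log2 scale in WT (adjusted p = 0.0143) and by 1.08 in AMPK-KO (adjusted p = 0.0380). *Eri1*, an exonuclease that trims and degrades histone messages, fell by 1.06 and 0.77, and *Srrt*, a partner of the nuclear cap-binding complex, by 0.93 and 0.83. The list was not called in TET2-S97E (0 of 20 in either direction), with a median change of 0.00.

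Of 18 histone chaperones, 11 fell in WT and 8 in AMPK-KO (6.58% and 4.95% of all genes) and 0 rose, among them *Asf1b*, which carries H3 and H4 to the replication fork, by 3.53 and 3.04, and *Mcm2*, a helicase subunit that also binds H3 and H4, by 2.38 and 2.20. Of 11 variants listed as replication-independent, 3 were called lower in each genotype, beside the same shares of all genes, and most were not called. In WT the 3 were *H2afz* (H2A.Z), *H2afx* (H2A.X, marked at DNA breaks) and *Cenpa*, the centromeric H3. In WT and AMPK-KO *H2afz* was lower by 1.53 and 1.74, *H2afx* by 2.28 and 1.74, and *Cenpa* by 3.17 and 2.44. *H3f3a*, which encodes H3.3, rose by 0.67 in AMPK-KO. *H2afy2*, a macroH2A gene, was lower in AMPK-KO than in WT at d0 by 2.73 (adjusted p = 0.0370), and *H1f0*, a linker histone of nondividing cells, was lower in TET2-S97E by 0.82 (adjusted p = 0.00832).

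The S phase and proliferation genes were far lower at d8. Of 30 DNA replication and S phase genes, 28 fell in WT and 27 in AMPK-KO (6.58% and 4.95% of all genes), with median log2 changes of -2.28 and -2.04, and all 8 proliferation markers fell in both, with medians of -3.57 and -2.79. *Tk1*, thymidine kinase, fell by 3.40 and 2.86, and *Mki67* by 3.59 and 2.72. At d0 in TET2-S97E, 6 of the 30 S phase genes were higher, against 3.71% of all genes, among them *Rrm2* (ribonucleotide reductase) by 1.71 and *Pole* (DNA polymerase epsilon) by 1.49, and 1 of the 8 proliferation markers, *Mki67*, by 1.70. The list medians were 0.71 and 1.04. Clones of the same allele also differed. In TET2-WT, 3 of the 8 proliferation markers were lower in clone 2 than in clone 1, against 0.394% of all genes. The medians there were -1.44 for these markers and -0.56 for the S phase genes, of which 0 were called. In TET2-S97E the medians for clone 2 against clone 1 were 0.68 and 0.29, with 0 called. In AMPK-KO at d8 against WT, *Cdt1*, a replication licensing factor, was higher by 2.09 (adjusted p = 0.0470).

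**Figure D5:**
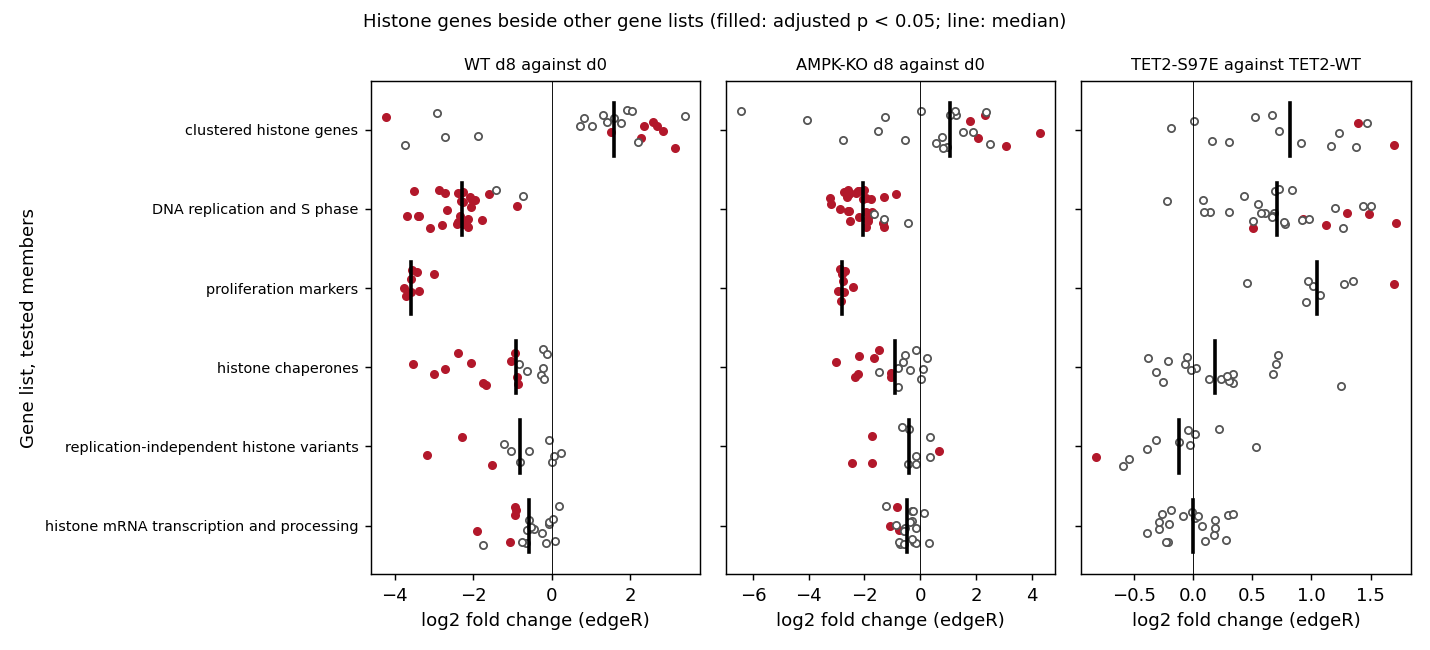
log2 fold changes of the tested members of each gene list (points, filled where the edgeR adjusted p was under 0.05, black line at the median) in 3 comparisons. At d8 the 23 tested histone genes, which a low gene could join through the group where it is high, lie mostly to the right of 0, and S phase genes and proliferation markers to the left, with medians of 1.59, -2.28 and -3.57 in WT.

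Of the members, 11 were listed as known for polyadenylated or dual forms, again with earlier results known: 7 were tested in the first table, 4 rose in WT (against 5.78% of all genes tested) and 3 in AMPK-KO (4.81%), and 1 of 6 rose in TET2-S97E (3.71%). Besides those described, the list held *Hist3h2a* (H2A, chr11:58954685-58956830, + strand), at 1.78 and 0.813 CPM at d0 and 3.58 and 3.33 at d8 in WT and at 0.942 and 2.94 at d0 and 4.89 and 6.41 at d8 in AMPK-KO. That gene overlaps *Trim17*, and it was not called in either genotype by edgeR with the filter or by DESeq2, but was called higher at d8 without the filter (edgeR adjusted p = 0.0457 in WT and 0.0236 in AMPK-KO). *Hist3h2ba* had 0 to 9 counts and *Hist4h4* 0 to 8 counts in the 16 libraries.

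Cell identity was checked with marker genes. Of the myoblast markers, *Des* (desmin) was 623 to 3147 TPM in the 16 libraries, whereas *Pax7*, a transcription factor of muscle stem cells, was 5.02 and 5.41 TPM in WT d0 and 0 and 0.0282 in AMPK-KO d0. Of the 6 myoblast markers, *Pax7* and *Myod1*, a master regulator of the muscle lineage, were called lower in AMPK-KO at d0, against 2.83% of all genes. With AMPK present *Myod1* was 152 and 247 TPM, without it 14.2 and 25.8, whereas *Myf5*, a related factor, was 86.0 and 103 with AMPK against 107 and 87.6 without. The same pair, *Pax7* and *Myod1*, was higher in TET2-S97E than in TET2-WT, against 3.71% of all genes. *Des*, *Myod1* and *Cdh15* (M-cadherin) were lower in TET2-S97E clone 2 than in clone 1, against 2.82% of all genes. At d8, 1 of the 6 rose in each genotype (5.78% and 4.81% of all genes), *Ncam1* (a cell adhesion molecule) in WT and *Myod1* in AMPK-KO. Myotube markers, with *Acta1* (skeletal actin) mostly the most abundant, summed to 349 and 203 TPM in WT d0, 38.7 and 27.0 in AMPK-KO d0, 10850 and 15040 in WT d8, and 3591 and 20030 in AMPK-KO d8. Of 8 markers with a row, 7 rose at d8 in each genotype, against 5.78% of all genes in WT and 4.81% in AMPK-KO. They also moved with the TET2 genotype, at 20.3, 23.6, 60.1 and 431 TPM in TET2-WT and 9131, 2752, 3252 and 674 in TET2-S97E, with 6 of 7 tested higher (3.71% of all genes). The proliferation markers summed to 190, 177, 78.7 and 78.0 TPM in TET2-WT and to 256, 144, 389 and 300 in TET2-S97E. The part that differentiation state or cycling had in the histone values was not tested.

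Markers of other cell types were near the limit of detection or low. The leukocyte markers *Ptprc* and *Itgam* and the adipocyte markers were at or close to 0, and the highest endothelial value was 1.39 TPM, of *Kdr* in WT d8 replicate 2. The germ cell gene *Dazl* was called higher in AMPK-KO at d0, at 0.597 and 1.99 TPM against 0 and 0.0491 (adjusted p = 0.0464). *Cd68*, a lysosomal gene, was 2.47 to 16.2 TPM, and *Krt8*, a keratin, reached 22.9 TPM in AMPK-KO d0 replicate 2. Of the 3 edited genes, *Prkaa1*, *Prkaa2* and *Tet2*, 1 was called lower in AMPK-KO at d0 (2.83% of all genes) and 2 at d8 (3.98%). *Prkaa1*, which encodes AMPK alpha 1, was read 3287 and 2925 times in the WT d0 libraries and 1522 and 1669 times in the AMPK-KO d0 libraries (log2 fold change -1.01, edgeR adjusted p = 0.0116). *Prkaa2*, which encodes AMPK alpha 2, was not called at d0. At d8 it was read 113 and 216 times with the wild-type allele and 31 and 17 times without (-2.96, edgeR adjusted p = 0.0190). RNA from a gene with a small insertion or deletion can still be read, so these counts do not measure the protein. *Tet2* was not called between TET2-S97E and TET2-WT (-1.40, adjusted p = 0.0621), and the counts per gene do not show the knocked-in codon.

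Across the 8 WT and AMPK-KO libraries, the genes whose log2 CPM followed the summed histone level most closely were *Csdc2*, *Mturn*, *Wwtr1*, *Il11* and *Pcdhb16*, with Pearson's r of 0.994, 0.991, 0.989, 0.985 and 0.985. These are a description only: the 8 libraries fall into d0 and d8, the genes were the highest of all that passed the filter, and the sum is mostly *Hist1h1c*.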

How the data were processed

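RNA-seq libraries were made with a total RNA kit from 16 C2C12 samples. The authors trimmed the paired-end reads with Trim Galore 0.4.5, aligned them to GRCm38 with STAR 2.5.3a and counted them per gene with featureCounts 1.5.3 on GENCODE M12. The deposited values are raw counts, in 1 table per experiment, not normalized. Whether strand was used and how reads that fit several genes were counted is not given in the sources used here. No column was unused.

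The histone clusters as the subject and the gene lists were chosen with earlier results of these data known; which genes are members follows from their symbols alone. Names, transcripts and positions came from GENCODE M21, in which 46 of the 68 members had the same identifier version as the tables and 22 another. The test was edgeR 4.0.16 in R 4.3.3 (TMM, filterByExpr with a minimum count of 10, quasi-likelihood test, Benjamini-Hochberg adjustment over all genes tested, threshold 0.05), and with DESeq2 1.42.0 as an alternative. The WT and AMPK-KO model had a mean for each group (4 residual degrees of freedom), the TET2 model genotype alone (6), and the clone model 4 clone groups (4). The common biological coefficient of variation was 0.281, 0.299 and 0.213. The SE beside an edgeR change was derived as the absolute log2 fold change over the square root of the F statistic of its test. CPM used TMM library sizes, and TPM the merged exon lengths. At these depths 3 counts or fewer were treated as not detected. Replicates differed by more than sampling noise (chi-square per degree of freedom 29.4 to 107). The fits were tested on simulated data.

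Genes named were the 3 members with the highest mean TPM in each class, all members called, dual-form members over 3 counts, up to 3 genes of each other list, the edited genes, and the 5 genes most like the histone sum; other members named were chosen after their values were seen.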

Additional observations from a re-analysis of the deposited data

Results flagged for a closer look

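Among 30 groups of 4 TET2 libraries checked, 3 held a library far from the other members of its group; chance gives about 1 in 20. *Hist2h2be* was 1.88 CPM in TET2-WT clone 2 replicate 1, against 3.62 to 3.88 in the other TET2-WT libraries. *Hist1h2be* was 3.95 CPM in TET2-S97E clone 2 replicate 2, against 2.57 to 2.64 in the others. *Hist1h3d* was 1.72 CPM in TET2-S97E clone 2 replicate 1, against 0.757 to 0.817 in the others, which all lay above the TET2-WT libraries. Groups of 2 libraries could not be checked in this way.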

How the results depend on the processing

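The summed histone level kept its direction at d8 against d0 in both genotypes under every normalization. With any library left out, the log2 ratio was 1.90 to 2.16 in WT and 1.62 to 2.41 in AMPK-KO. Both d8 libraries lay above both d0 libraries, so leaving 1 out could hardly have reversed the direction. In TET2-S97E the sum also kept its direction (0.46 to 0.83 with a library left out, and 0.32 without TET2-S97E clone 2). AMPK-KO against WT ranged from -0.69 to 0.08 at d0 and from -0.60 to -0.07 at d8. For *Hist1h1c* the same leave-out ranges were -0.84 to 0.0245 at d0, positive without WT d0 replicate 1 (0.0245) or AMPK-KO d0 replicate 1 (0.0160), and -0.78 to 0.0449 at d8, positive without AMPK-KO d8 replicate 2. Counts of called members were more fragile. With single libraries left out, 0 to 4 rose and 0 to 3 fell in WT, 0 to 2 rose in AMPK-KO, 0 to 1 was lower in AMPK-KO at d0, and 0 to 1 was higher in TET2-S97E and in its clone 2. Among all genes, the same fits called 0 to 978 higher and 0 to 1282 lower in WT and 0 to 515 higher in AMPK-KO. They called 13 to 377 lower in AMPK-KO at d0, 163 to 601 higher in TET2-S97E and 225 to 335 higher in its clone 2. DESeq2's Wald test gave 3 lower and 9 higher of 25 in WT (8.84% and 9.29% of all genes), 2 lower and 5 higher of 19 in AMPK-KO (7.99% and 9.24%) and 5 higher of 40 in TET2-S97E (6.09%), and its size factors left 0 higher in TET2-S97E clone 2. Without the filter, of 59 members tested, 4 fell and 12 rose in WT (5.89% and 7.24% of all genes), 3 fell and 7 rose in AMPK-KO (5.27% and 6.85%), so that the decreases were near those shares, and 1 was lower in AMPK-KO at d0 (5.79%), while 1 of 60 was higher in TET2-S97E (2.44%). Of the 23 members tested in the first table, 14 had under 80% unique windows. Keeping only members with at least 80% left 0 lower and 4 higher in WT (6.58% and 5.78% of all genes). It left 3 higher in AMPK-KO (4.81%) and 0 in TET2-S97E (3.71%). With only the compared groups in the fit, 0 fell and 3 rose in WT. For TET2-S97E, 0 were higher with counts summed per clone, 1 without TET2-WT clone 1, 0 without TET2-WT clone 2 and 1 without TET2-S97E clone 2. For the fits without a clone and the fit with only the compared groups, the share of all genes called is not given here. Apart from the settings that use fewer samples or members, the cause was not tested. The labels tie replicate numbers to no shared batch, and each WT or AMPK-KO group and each TET2 clone has only 2 replicates. Same-numbered deviations correlated at 0.130 to 0.369 in all 6 pairs of WT and AMPK-KO groups and at -0.061 to 0.544 among TET2 clones. A replicate block in edgeR left 1 higher in TET2-S97E (*Hist1h3d* adjusted p = 0.0556). It kept the 7 and 5 increases at d8 as counts, although in WT *Hist1h4i* lost its call (adjusted p = 0.0515) and *Hist2h2be* gained one (0.0497). The counts of decreases at d8 and of AMPK-KO against WT did not change. The comparisons between clones are not covered by this. For the genes called by edgeR with the filter, and for *Hist1h1c* and *Hist1h2bc* between all groups, 230 values under alternatives were set against those reported: 152 stayed on the same side of the threshold, 74 no longer passed it, 1 newly passed it and 3 changed sign. Other members that gained a call are not in this count. The 45 untested members of the first table had at most 47 counts in a library. The part of depth and of shared sequence in this was not tested.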
